A study of Mus musculus with 32 samples.

Results

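Small leucine-rich proteoglycans are secreted matrix proteins whose core is built of leucine-rich repeats. The messenger RNAs of 9 of them were followed in 3T3-L1 cells, namely Dcn (decorin), Bgn (biglycan), Aspn (asporin), Lum (lumican), Fmod (fibromodulin), Prelp (prolargin), Omd (osteomodulin), Ogn (osteoglycin) and Podn (podocan). The genes were taken by symbol from a table of 20560 genes, and all 9 were present. The set was chosen by measured values of these libraries, since Ogn was lower in control cells at day 3 than at day 0 and Prelp was lower in knockdown than in control cells. Comparisons that rest on those values are given below as descriptions without a test.

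3T3-L1 is a line of mouse preadipocytes, which store fat once hormones have driven them to differentiate. Zbtb9, which encodes a zinc finger protein with a BTB domain, was knocked down by either of 2 short hairpin RNAs, labelled shRNA 1 and shRNA 2, and a scramble hairpin (shCtrl, genotype given as WT) served as control. Each of days 0, 3, 7 and 11 had 4 control libraries and 4 knockdown libraries, 2 per shRNA, 32 in all. All cells received the same treatment: confluent cultures were given dexamethasone, 3-isobutyl-1-methylxanthine and insulin at day 0, insulin alone from day 3, and plain growth medium from day 7. The labels do not say whether day 0 RNA was taken before the hormones were added, how the hairpins were delivered, or whether replicates came from separate cultures, so p-values measure the spread between these libraries.

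As background, decorin, biglycan and asporin form class I of the family, lumican, fibromodulin, prolargin and osteomodulin class II, and osteoglycin belongs to class III, while podocan is placed in a separate class. Class I cores other than asporin carry chondroitin or dermatan sulphate chains, and several class II cores carry keratan sulphate and sulphated tyrosines. Most members bind fibrillar collagen and control how fibrils grow, and decorin, biglycan and asporin also bind transforming growth factor beta. In fat tissue they are made mainly by fibroblasts and preadipocytes, whose matrix is remodelled as the cells fill with lipid.

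Deposited values were log2 values that draw rare genes towards their mean. Whole reads were rebuilt from them, and "normalized reads" below are those reads divided by a size factor per library. Depth was 22280363 to 31073726 reads, and at day 11 every control library was deeper (26486057 reads or more) than every knockdown library (25511855 or fewer). The protocol names no molecular identifiers, so reads may be copies of 1 molecule. The mean correlation of a library with the others of its group was 0.9972 to 0.9985. By chi-square per degree of freedom replicate libraries differed by 3.00 to 11.8, most between the shRNA 1 libraries of day 11. Zbtb9 itself had 6 to 23 reads in a control and 0 to 17 in a knockdown library, with means of 14.18 and 7.4 normalized reads. At day 11 the libraries labelled shRNA 1 had 8 and 17 reads (mean 13.74 normalized) beside 13 to 22 in control (mean 15.52), so the target's reads do not check that label there. Of the 10 adipocyte marker genes, 4 had a mean of 10 or more normalized reads in control cells at day 0 and 9 at day 11, while 10 and 9 of the 10 preadipocyte or fibroblast markers did. The defining markers Ptprc and Adgre1 of macrophages, Myog and Myod1 of muscle, Bglap of osteoblasts and Krt14 of epithelium had 3 reads or fewer in every library or were not among the genes analysed. Other genes of those lists were present: macrophage markers summed to at most 648.4 normalized reads in a library, osteoblast or chondrocyte markers to at most 9054, and muscle markers at day 7 to 295.6 to 387.7 in control and 543.9 to 668.2 in knockdown libraries. Their part in the results was not tested.

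Several of the 9 genes lie side by side. In GRCm38, Ogn (chr13:49608046-49624501), Omd (chr13:49582462-49592822) and Aspn (chr13:49544443-49567565) follow each other on the plus strand of chromosome 13, 15.2 and 14.9 kb apart, with Ecm2, a related matrix gene, 11.7 kb before Aspn. Dcn (chr10:97479609-97518143) and Lum (chr10:97565128-97572703) are separated by 47.0 kb on the plus strand of chromosome 10. Prelp (chr1:133910304-133921414, minus strand) and Fmod (chr1:134037254-134048277, plus strand) are 115.8 kb apart on chromosome 1, with no protein-coding gene between. Bgn (chrX:73483602-73495933, plus strand) and Podn (chr4:108014791-108096445, minus strand) have no other member beside them. An antisense gene, Gm15851, shares 350 exon bases (9.7%) with Prelp, and the counting is not stated to use strand, so reads from the shared stretch cannot be told apart.

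The upstream sequences of Ogn, Fmod, Prelp and Aspn, which had lower means at day 3 than at day 0 in control cells, are shown beside that of Bgn, whose mean was nearly level. Each is the 250 bases before the RefSeq start in GRCm38.p6, written 5′ to 3′ on the gene's own strand, with matches to the searched motifs in capitals.
Ogn (chr13:49607765-49608014, plus): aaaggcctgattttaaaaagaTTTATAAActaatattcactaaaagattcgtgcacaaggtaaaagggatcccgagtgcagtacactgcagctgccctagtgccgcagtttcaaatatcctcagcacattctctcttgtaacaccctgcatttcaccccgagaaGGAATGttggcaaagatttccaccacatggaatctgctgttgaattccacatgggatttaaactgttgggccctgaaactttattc
Fmod (chr1:134037004-134037253, plus): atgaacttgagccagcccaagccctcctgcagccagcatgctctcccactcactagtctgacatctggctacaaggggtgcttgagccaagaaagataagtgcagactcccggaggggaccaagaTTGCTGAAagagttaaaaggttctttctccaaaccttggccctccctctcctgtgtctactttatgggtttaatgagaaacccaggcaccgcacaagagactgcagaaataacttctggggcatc
Prelp (chr1:133921402-133921651, minus): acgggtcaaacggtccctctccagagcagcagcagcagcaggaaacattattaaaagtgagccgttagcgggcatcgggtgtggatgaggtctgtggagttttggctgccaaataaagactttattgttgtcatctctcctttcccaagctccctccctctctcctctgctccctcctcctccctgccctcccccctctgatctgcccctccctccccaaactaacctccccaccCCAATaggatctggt
Aspn (chr13:49544193-49544442, plus): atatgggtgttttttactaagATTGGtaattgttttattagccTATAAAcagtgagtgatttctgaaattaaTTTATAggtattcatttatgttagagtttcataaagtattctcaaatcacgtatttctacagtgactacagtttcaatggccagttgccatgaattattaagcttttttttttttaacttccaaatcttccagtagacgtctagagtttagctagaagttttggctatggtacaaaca
Bgn (chrX:73483351-73483600, plus): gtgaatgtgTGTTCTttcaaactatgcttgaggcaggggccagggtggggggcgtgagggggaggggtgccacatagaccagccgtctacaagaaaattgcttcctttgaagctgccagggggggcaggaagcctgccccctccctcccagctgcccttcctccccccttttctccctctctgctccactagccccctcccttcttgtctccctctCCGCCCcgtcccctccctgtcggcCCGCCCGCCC

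Motifs were searched on both strands. AGAACA is a part of the site of the glucocorticoid receptor, to which dexamethasone binds, TGANTCA is the AP-1 site and TTGCNNAA the core bound by C/EBP factors. GGAATG is bound by TEAD factors, GGGCGG is the GC box, and TATAAA and CCAAT are core promoter elements. Of the 9 genes, 7 had an upstream entry in the RefSeq table. Omd, also lower at day 3 than at day 0 in control cells, is not shown, and its window held none of the motifs. Positions are counted back from the RefSeq start at the end of each window, which is not always the GENCODE start given above. The Prelp window ends inside the GENCODE gene, so its CCAAT at -15 spans the GENCODE start. Ogn held GGAATG at -86, found in 12.6% of 32851 promoters of the same length, and TATAAA matches on both strands that overlap at -227 and -229. Fmod held the C/EBP letters TTGCTGAA at -125, a motif present in 9.6% of promoters. Prelp held CCAAT at -15 (33.8% of promoters), and Aspn held TATAAA at -207, its reverse complement at -178 and reversed CCAAT at -229. Bgn held TGTTCT, the reverse complement of the receptor motif, at -241, against 16.1% of promoters, and GC boxes at -34, -10 and -6, against 32.7%. TATAAA occurred in 12.4% of promoters and TGANTCA, in 6.7% of them, was matched in none of the 7 genes. These matches describe letters in a window and not bound sites.

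Together the 9 genes took 0.549% ± 0.011 (SD, n = 4) of all reads in day 0 control cells. The control share was 0.471% ± 0.007 on day 3, 0.615% ± 0.019 on day 7 and 0.549% ± 0.026 on day 11. In knockdown cells the shares were 0.482% ± 0.032, 0.454% ± 0.025, 0.506% ± 0.039 and 0.442% ± 0.084 in the same order of days. Biglycan alone gave 71.7% to 87.2% of the family's reads in a library. Levels of different genes were compared per kb of the principal transcript. In control cells at day 0 the level per kb was 40449 ± 1443 normalized reads for Bgn, 12167 ± 177 for Dcn, 2555 ± 150 for Aspn, 1792 ± 33 for Ogn, 1089 ± 31 for Prelp and 408 ± 21 for Fmod. Far below these, Lum was at 19.7 ± 2.2, Podn at 8.52 ± 3.90 and Omd at 7.48 ± 4.15 per kb. Neighbours in this order did not overlap between libraries except Podn and Omd.

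The top of that order was the same on all 4 days in both arms, with Bgn, then Dcn, then Aspn highest by mean level per kb, and Omd was last. The middle changed. By day 3 control cells had Prelp at 190.1 ± 14.1 normalized reads per kb and Lum at 124.6 ± 22.1, both above Ogn at 16.4 ± 2.0, while Fmod stood near the bottom of the order at 1.10 ± 1.09 beside Omd at 0.58 ± 0.45, and the libraries of these 2 genes overlapped. At day 11 control libraries of Aspn and Prelp overlapped per kb, as did those of Lum and Fmod, and the other neighbours were separate. Knockdown cells at day 11 showed more overlap, since Aspn overlapped Prelp, Ogn overlapped Lum, Lum overlapped Fmod and Fmod overlapped Podn.

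**Figure D1:**
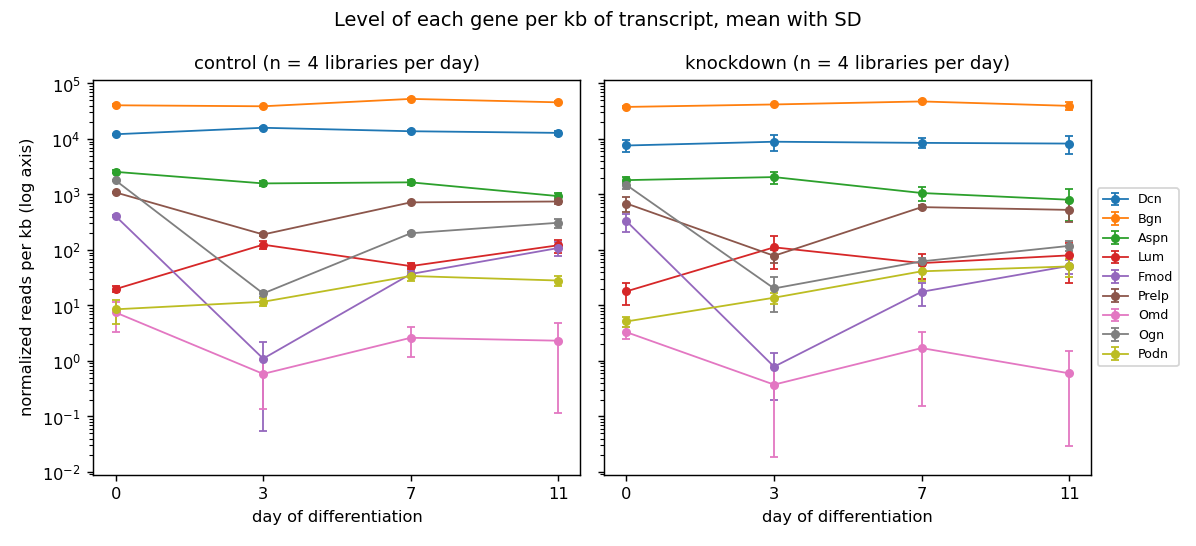
Mean normalized reads per kb of the principal transcript (log axis, SD as bars, n = 4 libraries) for each gene by day in control and knockdown cells; where the SD nears or exceeds the mean, the lower bar is shortened to stay on the log axis. Bgn, Dcn and Aspn stay at the top on all days, while Ogn, Fmod and Prelp are low at day 3.

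The first question is how the family moved as control cells differentiated. Against day 0, day 3 control means were lower for 6 of the 9 genes and higher for 3. Over all 13421 genes tested, 76.6% were called in this contrast, 38.2% lower and 38.3% higher. The contrast was used in choosing the genes, so their values follow as descriptions. In these bulk samples fewer cells of a type and less RNA per cell cannot be told apart. Marker genes differed between the same control libraries. The preadipocyte or fibroblast markers summed to 541180 to 566040 normalized reads at day 0 and 264890 to 285680 at day 3 (7 of 9 tested called lower). For 8 interferon response genes the sums were 17669 to 24865 and 1136.6 to 1183.4 (8 of 8 lower), and for adipocyte markers 19718 to 20316 and 25410.0 to 30599 (8 of 9 higher). Osteoblast or chondrocyte markers summed to 8189 to 8532 and 2857 to 3040.0 (3 of 4 tested lower, 1 higher). Their part in the proteoglycan values was not tested. "Called" here and below means an adjusted p under 0.05.

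Osteoglycin, a class III member that is abundant in connective tissue and takes part in collagen fibril assembly, had the largest difference of the 9 genes on the deposited log2 scale. Its 4 control libraries held 4688, 4568, 4495 and 4645 normalized reads at day 0 and 36.8, 42.3, 49.2 and 40.4 at day 3. The day 3 mean was 109-fold lower, a difference of -6.06 on the deposited log2 scale. Every day 3 library lay far below every day 0 library.

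Fibromodulin, a class II keratan sulphate proteoglycan that binds collagen and steers its cross-linking, went from 1270.4, 1348, 1283 and 1188 normalized reads to 6.3, 1.1, 0.0 and 6.4. These day 3 libraries hold 0 to 6 reads each, so the 370-fold ratio of the means rests on counts close to 0. The deposited scale gave -5.67 for it, and log2 of normalized reads plus 1 gave -8.61, larger than the -6.74 of Ogn on that scale. Prolargin, a heparin-binding class II protein thought to tie basement membranes to connective tissue, held 3853, 4099, 3912 and 3879 normalized reads at day 0 and 747.9, 635.7, 709.6 and 655.9 at day 3. That is a 5.73-fold lower mean with no overlap between the days. Osteomodulin, a keratan sulphate proteoglycan of bone, was rare from the start, with 29.5, 17.2, 13.1 and 7.5 normalized reads at day 0 and no more than 2.1 at day 3. All day 3 control libraries of Omd held 2 reads or fewer, and it passed the filter on low values in none of the comparisons.

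Among class I members, decorin, which winds around collagen fibrils and limits their width, had 21043, 21212, 21693 and 21608 normalized reads at day 0 and 27015, 26903, 28740.3 and 29232 at day 3, a 1.31-fold higher mean. Biglycan, which binds collagen and, when soluble, Toll-like receptors, had means of 97847 ± 3490 and 93916 ± 1043, and its groups overlapped. Asporin, which carries a run of aspartates in place of a sugar chain and binds transforming growth factor beta, was 1.62-fold lower, at 3684 ± 413 against 5951 ± 350.

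Lumican, a class II member known from the clear cornea, held 43.8, 43.5, 54.4 and 51.4 normalized reads at day 0 and 249.3, 284.5, 308.7 and 377.4 at day 3. Its day 3 mean was 6.32-fold higher and the groups were separate. Podocan, a collagen-binding glycoprotein that restrains smooth muscle cell growth, had 27.02 ± 12.36 and 36.9 ± 6.4 normalized reads with overlap between the days.

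**Figure D2:**
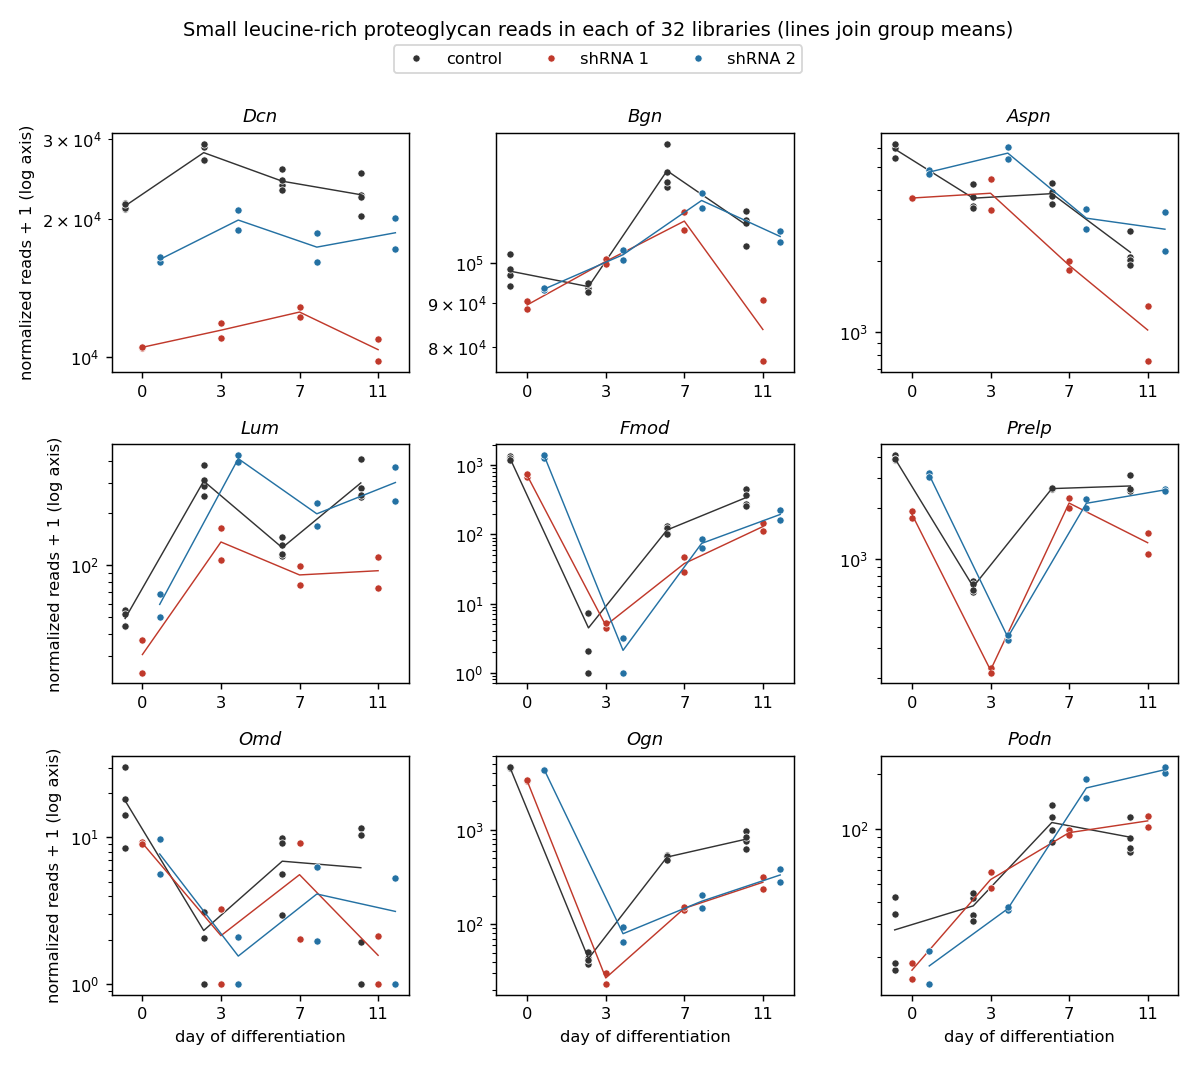
Normalized reads plus 1 (log axis) in every library by day, with control in black, shRNA 1 in red and shRNA 2 in blue; each point is a library and lines join group means. Ogn, Fmod and Prelp are lowest at day 3, Lum is higher at day 3, and for Dcn both shRNAs lie below control on all days.

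Knockdown cells gave a time course in libraries that were not used to choose Ogn. From day 0 to day 3, 6 of the 7 genes tested were called, 4 higher and 2 lower, where 75.1% of 13456 genes were called, 37.7% higher and 37.3% lower. Osteoglycin held 3262, 3339, 4284 and 4296 normalized reads at day 0 (shRNA 1 first) and 29.5, 22.2, 63.0 and 93.3 at day 3. It fell by 5.67 on the log2 scale (95% interval -6.03 to -5.31; adjusted p = 3.4e-14). Fibromodulin fell by 5.35 (-5.75 to -4.96; adjusted p = 1.7e-14), from 676.6, 747.1, 1289 and 1399 normalized reads to 3.4, 4.2, 0.0 and 2.2.

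Lumican rose by 1.98 (adjusted p = 4.5e-08) and podocan by 0.79 (adjusted p = 0.00046) in the same knockdown libraries. For lumican the mean went from 43.99 ± 19.08 to 273.1 ± 161.7 normalized reads, a wide spread at day 3 because shRNA 1 had 163.5 and 106.9 and shRNA 2 had 391.7 and 430.4. The rises of Dcn (0.20, adjusted p = 0.020) and Bgn (0.14, adjusted p = 0.039) were small and were not called when libraries were scaled to equal totals, which lowers every gene by 0.157 in this contrast. On that scale Dcn stood at 0.04 and Bgn at -0.01. Neither was called without a term for shRNA (adjusted p = 0.51 and 0.12) or without shRNA2_day0 replicate 1 (0.053 and 0.094). The Dcn call was also lost without shRNA2_day3 replicate 1 (0.082) and in 1 fit of all 32 libraries (0.38), and the Bgn call without shRNA1_day0 replicate 1, shRNA2_day0 replicate 2 or shRNA1_day3 replicate 1 or 2 (0.055 to 0.11) or the trend and robust steps of the test (0.068). Asporin differed by 0.15 (-0.34 to 0.65; adjusted p = 0.56). Prolargin, described only, had knockdown means of 2484 ± 754 at day 0 and 283.7 ± 73.2 at day 3.

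After day 3 osteoglycin, fibromodulin and prolargin were higher again in control cells, and no later library reached the day 0 range. In control cells from day 3 to day 7, 5 of 6 genes tested were called, 3 higher and 2 lower, against 74.2% of all genes, 37.6% higher and 36.6% lower. Prolargin, described only in this arm too, held 2613, 2575, 2597 and 2638 normalized reads at day 7, 3.79-fold its day 3 mean. Fibromodulin rose by 2.48 (adjusted p = 6.1e-17) to 130.9, 123.7, 104.9 and 100.5. Both genes stayed below every day 0 control library. Osteoglycin, described only for this step, reached 533.4, 518.3, 523.4 and 478.0 normalized reads, 12.2-fold its day 3 mean.

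In the same step podocan rose by 1.07 (adjusted p = 1.8e-07) and biglycan by 0.43 (adjusted p = 1.8e-12), biglycan's day 7 libraries holding 127080.4, 122322, 136897 and 123851 normalized reads, above all its day 3 libraries. Lumican fell by 1.09 (adjusted p = 1.3e-09) to 144.7, 111.6, 115.6 and 129.3, and decorin fell by 0.20 (adjusted p = 0.00015, but 0.38 in 1 fit of all 32 libraries). Asporin differed by 0.06 (-0.16 to 0.29; adjusted p = 0.59).

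From day 7 to day 11 in control cells 5 of 7 genes tested were called, 3 higher and 2 lower, where 55.0% of all genes were, 28.9% higher and 26.1% lower. Osteoglycin rose by 0.58 (0.41 to 0.75; adjusted p = 4.9e-07), to 961.5, 760.6, 831.5 and 619.5 normalized reads. Fibromodulin rose by 1.37 (adjusted p = 1.5e-10) to 452.3, 271.0, 374.4 and 255.4, and lumican by 1.05 (adjusted p = 7.2e-09). For each of these 3 genes all day 11 libraries exceeded all day 7 libraries. Asporin fell by 0.80 (adjusted p = 1.5e-05) to 2686, 2074, 2022 and 1917 normalized reads, and biglycan fell by 0.20 (adjusted p = 2.3e-05). Podn and Dcn were not called, with differences of -0.20 and -0.10, and Prelp, described only, differed by 0.04. Decorin was called with libraries scaled to equal medians (adjusted p = 0.031), and without shCtrl_day7 replicate 4 or without shCtrl_day11 replicate 1 (adjusted p = 0.035 and 0.0021).

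Knockdown cells had 4 of 7 genes called higher and 2 lower from day 3 to day 7, where 71.6% of all genes were called (37.5% higher, 34.1% lower). From day 7 to day 11, 2 of 7 were called higher and 1 lower (55.2% called, 27.7% higher, 27.4% lower). Osteoglycin rose by 1.36 (adjusted p = 2.4e-06) and then by 0.83 (adjusted p = 0.00062), and fibromodulin by 1.61 (adjusted p = 5.0e-07) and then by 1.31 (adjusted p = 1.4e-05). Podocan rose by 1.12 in the first step (adjusted p = 1.2e-05) and differed by 0.22 in the second (adjusted p = 0.31). Asporin fell by 0.92 (adjusted p = 0.0030) and lumican by 0.72 (adjusted p = 0.0030) from day 3 to day 7, the latter not called without a term for shRNA (adjusted p = 0.18) or in 1 fit of all 32 libraries (0.079). Biglycan rose by 0.17 (adjusted p = 0.015), a call lost without shRNA2_day3 replicate 1 (adjusted p = 0.053) or the term for shRNA (0.068), and then fell by 0.27 (adjusted p = 0.00084). Aspn differed by -0.54 from day 7 to day 11 (adjusted p = 0.061) and was called without shRNA2_day11 replicate 1 (0.0063) or without the trend and robust steps of the test (0.037).

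Marker genes moved in these steps too. In control cells 9 of 9 adipocyte markers, 7 of 9 preadipocyte or fibroblast markers and 8 of 8 interferon response genes were called higher from day 3 to day 7, and 2 preadipocyte or fibroblast markers lower. From day 7 to day 11 the control counts were 3 higher and 6 lower for adipocyte markers, 6 higher and 3 lower for preadipocyte or fibroblast markers and 7 higher for interferon response genes. In knockdown cells adipocyte markers were called higher in 9 of 9 cases from day 0 to day 3 and again to day 7, then 2 higher and 5 lower to day 11. Preadipocyte or fibroblast markers there were 2 higher and 6 lower, then 4 higher and 2 lower, then 5 higher and 2 lower in the same steps. Interferon response genes in knockdown cells were 8 lower, then 6 higher, then 5 higher. The part of these shifts in the proteoglycan values was not tested.

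The second question is how Zbtb9 knockdown changed the family at each day. The 4 knockdown libraries were set against the 4 control libraries of the same day, and Prelp, chosen for this difference, is described only. At day 0, 1 of the 7 genes tested was called, and it was lower. Over 13216 genes, 3.25% were called, 2.44% lower and 0.817% higher. The shRNAs differed from each other in 35.0% of genes at day 0, and the pooled groups count this as spread. With the shRNAs as separate groups, whose spread leaves that difference out, Dcn, Bgn and Fmod were called lower too. At day 7 the count was 5 of 7, all lower, against 47.6% of genes called, 22.6% lower and 24.9% higher. At day 11 it was 3 lower and 1 higher of 7, against 33.0% called, 16.2% lower and 16.8% higher. Counted by libraries and leaving out Prelp, 4, 5 and 3 of the 7 genes on days 0, 7 and 11 had every knockdown library below every control library, and none the reverse. Over all genes 8.02%, 20.9% and 17.4% were separated downwards and 5.95%, 23.3% and 17.1% upwards. The median log2 difference of these 7 genes was -0.33, -0.65 and -0.68 on those days, beside -0.01, 0.01 and -0.01 over all genes. The days share no libraries, but each shRNA shares the control libraries of its day with the other. The 7 genes include Ogn. Its day 0 control libraries were used in the choice, so it enters the day 0 counts and median as a description.

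Marker genes moved in the same comparisons. The 10 adipocyte markers summed to 47780 to 51875 normalized reads in control and 131960 to 203220 in knockdown libraries at day 7, and 9 of the 9 tested were called higher at days 3, 7 and 11. The 10 preadipocyte or fibroblast markers summed to 461240 to 514800 and 399180 to 438750 at day 7, with 7 of 9 tested called lower, and 5 of 9 at day 11. Of 8 interferon response genes, 8 were called lower at day 7, when they summed to 13555 to 20548 normalized reads in control and 3960.5 to 5391 in knockdown libraries. At day 11 macrophage markers summed to 209.1 to 308.3 normalized reads in control and 312.6 to 648.4 in knockdown libraries. Muscle markers summed to 262.7 to 307.4 and 499.6 to 569.6, while endothelial and osteoblast or chondrocyte sums overlapped between the arms. The part of these shifts in the proteoglycan results was not tested.

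Osteoglycin had the largest tested differences of the family at days 7 and 11. At day 7 its knockdown libraries held 140.0 and 152.0 normalized reads with shRNA 1 and 200.4 and 147.1 with shRNA 2, beside 478.0 to 533.4 in control. Every knockdown library was below every control library. The difference was -1.56 (-1.77 to -1.34; adjusted p = 9.2e-09), the knockdown mean being 31.1% of control. At day 11 the knockdown libraries held 318.6, 235.1, 383.8 and 278.4 against 961.5, 760.6, 831.5 and 619.5 in control, again with no overlap, a difference of -1.31 (-1.65 to -0.97; adjusted p = 0.00014). With either shRNA alone Ogn was called lower on both days, at 28.5% and 33.9% of control on day 7 and 34.9% and 41.7% on day 11.

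The day 0 difference of osteoglycin was small, -0.28, with 71.8% of control for shRNA 1 and 93.3% for shRNA 2. It is described only, since the choice of Ogn used its control libraries of day 0. At day 3, when the gene was near its lowest, shRNA 1 libraries lay below control (29.5 and 22.2 against 36.8 to 49.2 normalized reads) and shRNA 2 libraries above it (63.0 and 93.3). The knockdown difference at day 7 was larger than at day 0 by -1.28, and at day 11 by -1.03. These changes rest on the same day 0 libraries and are described only. Apart from Ogn, no member was called for the change to day 7, where 29.9% of 13571 genes were called. For the change to day 11 Podn was called, against 23.2%.

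Fibromodulin was also lower in knockdown cells late. Its day 7 libraries held 27.4 and 46.4 normalized reads with shRNA 1 and 83.9 and 62.3 with shRNA 2, all below the control range of 100.5 to 130.9. The difference was -0.91 (-1.34 to -0.48; adjusted p = 0.0021) at day 7 and -0.98 (-1.46 to -0.49; adjusted p = 0.0071) at day 11, when knockdown libraries held 110.3, 147.6, 226.5 and 160.5 against 255.4 to 452.3. At day 0 the shRNAs parted, since shRNA 1 libraries held 676.6 and 747.1 and shRNA 2 libraries 1289 and 1399 beside 1188 to 1348 in control. The pooled day 0 difference was -0.36 (adjusted p = 0.40), and it was called with the shRNAs as separate groups (adjusted p = 2.4e-06). Whether the knockdown difference changed between day 0 and day 7 gave -0.56 (-1.18 to 0.07; adjusted p = 0.18), called only with a coefficient for each shRNA and day (adjusted p = 0.019).

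Decorin was lower in all knockdown libraries than in all control libraries on each of the 4 days. At day 0 shRNA 1 libraries held 10471 and 10509 normalized reads and shRNA 2 libraries 16120.2 and 16532, beside 21043 to 21693 in control. The difference was -0.69 (-1.04 to -0.34; adjusted p = 0.052), past the threshold without shRNA2_day0 replicate 1 (adjusted p = 0.035) or replicate 2 (0.016), with a filter at 50 (0.041), a pseudocount of 10 (0.049) or voom (0.021). With the shRNAs as separate groups it was called too (adjusted p = 4.5e-19). Day 7 gave -0.69 (-0.95 to -0.44; adjusted p = 0.00067). Day 11 gave -0.68 (-1.19 to -0.17; adjusted p = 0.049), a call lost when any of shRNA1_day11 replicates 1 and 2 or the 4 control libraries was left out (adjusted p = 0.072 to 0.11), and with voom (0.059) or log2 of normalized reads plus 1 (0.051). Each shRNA alone was called lower on days 0, 7 and 11, at 49.1%, 51.7% and 45.8% of control for shRNA 1 and 76.3%, 71.7% and 82.6% for shRNA 2. The day 3 difference, described only, was -0.86.

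Asporin was the gene called at day 0. Its libraries held 3684 and 3696 normalized reads with shRNA 1 and 4833 and 4669.9 with shRNA 2, against 6111, 5452, 5987 and 6252 in control, with no overlap. The difference was -0.49 (-0.69 to -0.29; adjusted p = 0.020), and leaving out shCtrl_day0 replicate 1, 3 or 4 ended the call (adjusted p = 0.071 to 0.076), as did 1 fit of all 32 libraries (0.33). At day 7 it was -0.65 (-1.08 to -0.22; adjusted p = 0.021), with 2003 and 1829 in shRNA 1, 3326 and 2738 in shRNA 2 and 3478 to 4284 in control. That call was lost without shRNA1_day7 replicate 1 (adjusted p = 0.056). At day 3 the order was the opposite for shRNA 2, whose 6041 and 5391 normalized reads lay above the control range of 3347 to 4249. At day 11 shRNA 1 had 1288 and 751.7 and shRNA 2 had 3234 and 2213 around a control range of 1917 to 2686, and the pooled difference was -0.39 (-1.42 to 0.64; adjusted p = 0.53).

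Biglycan differed by little. Its knockdown mean was 93.4% of control at day 0 (adjusted p = 0.22), 90.0% at day 7 (-0.15, -0.26 to -0.03; adjusted p = 0.032) and 86.4% at day 11 (adjusted p = 0.12). The day 7 call was lost without shRNA1_day7 replicate 1 or 2, or without shCtrl_day7 replicate 1 or 3 (adjusted p = 0.056 to 0.10), without the trend and robust steps (0.062) and in 1 fit of all 32 libraries (0.055). The day 11 difference was called without shRNA2_day11 replicate 1 (-0.28, adjusted p = 0.042) and in 1 fit of all 32 libraries (0.0065). With the shRNAs as separate groups biglycan was called lower at days 0 and 11 (adjusted p = 0.0022 and 0.0078). At day 3 the knockdown libraries, at 99630.0 to 103461 normalized reads, lay above the control range of 92615 to 94931.

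Lumican gave no call at any tested day with both shRNAs in 1 group, and the shRNAs lay on opposite sides of control at day 7. There shRNA 1 held 98.4 and 75.4 normalized reads, below the control range of 111.6 to 144.7, and shRNA 2 held 227.6 and 166.6, above it. Set against control alone, shRNA 1 differed by -0.42 (adjusted p = 0.014) and shRNA 2 by 0.54 (adjusted p = 0.0020). At day 11 shRNA 1 held 111.3 and 72.7 against 246.7 to 411.6 in control (-1.42, adjusted p = 9.0e-05), while shRNA 2 differed by 0.00 (adjusted p = 1.00). The pooled day 11 difference was -0.71 (-1.70 to 0.27; adjusted p = 0.24), and -1.04 without shRNA2_day11 replicate 1 (adjusted p = 0.043). With the shRNAs as separate groups it was called (adjusted p = 0.0068).

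Podocan was the member called higher in knockdown cells. At day 11 shRNA 2 libraries held 202.0 and 218.9 normalized reads, above the control range of 74.0 to 116.1, and shRNA 1 libraries held 117.4 and 102.2, within or just above it. The difference was 0.61 (0.17 to 1.05; adjusted p = 0.037), and it exceeded that of day 0 by 0.94 (0.39 to 1.49; adjusted p = 0.011, but 0.054 with voom). The day 11 call did not hold with shRNA 1 alone (0.24, adjusted p = 0.22), nor without shRNA2_day11 replicate 1 or 2, nor without shCtrl_day11 replicate 1, 2 or 3 (adjusted p = 0.079 to 0.10), nor with no filter on low values (0.053). At day 7 shRNA 2 alone differed by 0.51 (adjusted p = 0.0075), shRNA 1 alone by -0.13 (adjusted p = 0.50) and both together by 0.19 (adjusted p = 0.40).

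Prolargin, described without a test, was lower in knockdown than in control means on all 4 days. At day 3 shRNA 1 libraries held 228.3 and 213.7 normalized reads and shRNA 2 libraries 334.8 and 357.9, against 635.7 to 747.9 in control. That was 32.2% and 50.4% of the control mean. Over both shRNAs the log2 difference was -0.69, -1.20, -0.28 and -0.57 at days 0, 3, 7 and 11, and the groups overlapped only at day 11, when shRNA 2 held 2586 and 2538 and control 2536 to 3143. Osteomodulin stayed under the filter, with no more than 8.8 normalized reads in a knockdown library. Among the 9 genes at day 3, the knockdown mean was lower for 5 and higher for 4, and 26.7% of 13139 genes were called there, 12.1% lower and 14.6% higher. Libraries were separate for Dcn and Prelp (lower; 12.8% of all genes) and for Bgn (higher; 15.5%). The day 3 contrast was used in the choice of the genes.

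With 1 shRNA at a time against control, shRNA 1 had 6 of 7 genes called on each of days 0, 7 and 11, all lower, where 33.4%, 51.9% and 44.4% of all genes were called. The 6 were Dcn, Bgn, Aspn, Lum, Fmod and Ogn on each day. Ogn at day 0 is counted though its control libraries of that day were used in the choice. For shRNA 2 the counts were 2, 6 and 4 of 7, against 16.7%, 44.8% and 38.9%. Dcn and Aspn were lower at day 0, Dcn, Aspn, Fmod and Ogn lower and Lum and Podn higher at day 7, and Dcn, Fmod and Ogn lower and Podn higher at day 11.

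**Figure D3:**
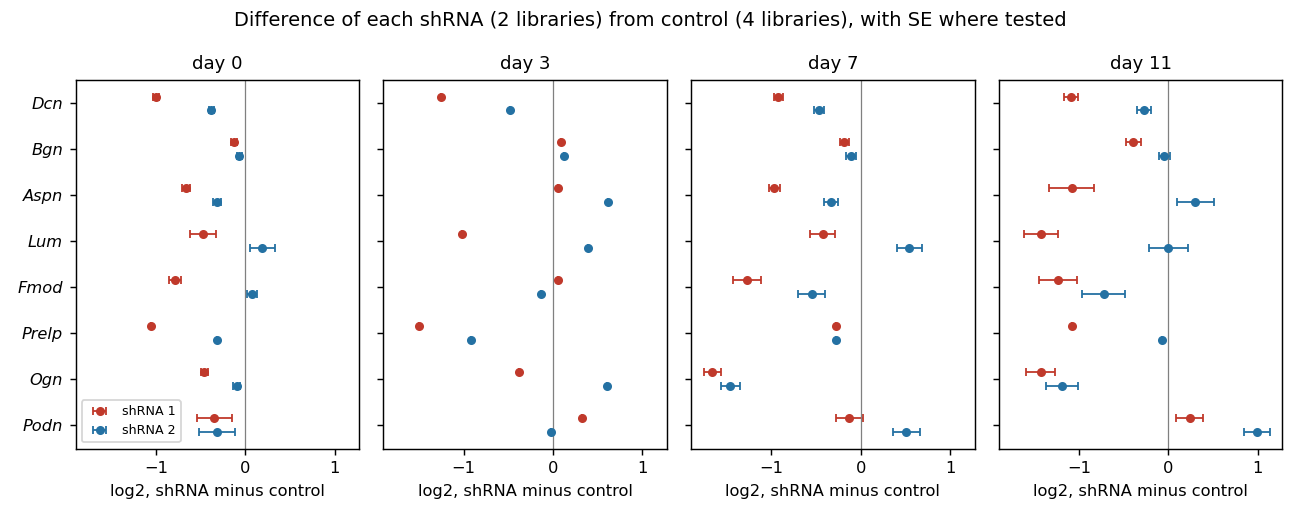
Log2 difference of each shRNA (2 libraries) from control (4 libraries) by day for the 8 genes past the filter, with the SE where a test was made; points without a bar are descriptions. Ogn is left of 0 for both shRNAs at days 7 and 11, whereas Lum lies on opposite sides at day 7. The Ogn points of day 0 have bars but are descriptions too.

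The third question is whether the shRNAs acted alike. They were compared with each other directly, 2 libraries against 2, in a fit that shared its spread with the control libraries of the day. Of the 8 genes tested, 6, 4, 5 and 6 were called on days 0, 3, 7 and 11, all higher with shRNA 2. These counts include Prelp on days 0, 3 and 11, which was chosen by its knockdown values and is described only. Over all genes the share called was 35.0%, 19.6%, 16.4% and 22.0%, and the share called higher 18.6%, 10.6%, 7.52% and 11.6%. Zbtb9 itself averaged 7.62, 3.70, 7.68 and 13.74 normalized reads with shRNA 1 and 9.91, 6.69, 6.63 and 3.19 with shRNA 2 on days 0, 3, 7 and 11. The part of this in the differences between the shRNAs was not tested.

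Decorin was higher with shRNA 2 on each day, by 0.62, 0.78, 0.45 and 0.82 (adjusted p = 2.0e-14, 2.0e-13, 1.6e-05 and 2.4e-05). Lumican was higher by 0.66, 1.41, 0.97 and 1.42 (adjusted p = 0.0026, 1.2e-07, 0.00014 and 0.0026). These were the members called on all 4 days, and for both genes the shRNA 2 libraries lay above the shRNA 1 libraries every time. The lumican call at day 0 was lost without shRNA1_day0 replicate 2 or shRNA2_day0 replicate 2 (adjusted p = 0.085 and 0.083).

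Prolargin was higher with shRNA 2 at days 0, 3 and 11, by 0.74, 0.58 and 1.01, and differed by 0.00 at day 7. Prelp was chosen by its knockdown values, so these differences are given without a test. Osteoglycin was higher by 0.36 at day 0 (adjusted p = 6.5e-08) and by 0.99 at day 3 (adjusted p = 6.1e-05). It was not called at day 7 (0.20, -0.06 to 0.46; adjusted p = 0.31) or day 11 (0.24, -0.24 to 0.71; adjusted p = 0.48), the days of its largest difference from control. Fibromodulin was higher by 0.86 on day 0 and 0.72 on day 7 (adjusted p = 4.5e-11 and 0.0070), the latter lost without shRNA1_day7 replicate 1 or shRNA2_day7 replicate 1 (adjusted p = 0.17 and 0.13) or the trend and robust steps (0.054). At day 11 fibromodulin was not called (0.51), and at day 3 its knockdown libraries held 4 reads or fewer, too few to compare.

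Asporin was higher with shRNA 2 by 0.35, 0.63 and 1.38 at days 0, 7 and 11 (adjusted p = 1.6e-06, 0.00015 and 0.031). The day 11 call was lost without shRNA1_day11 replicate 2, shRNA2_day11 replicate 1, or shCtrl_day11 replicate 2 or 3 (adjusted p = 0.051 to 0.12), and with the knockdown libraries alone (0.061). The day 3 difference of asporin (0.56, adjusted p = 0.093) was called without shRNA1_day3 replicate 1 (0.015), with no filter (0.046) and with the 4 knockdown libraries alone (0.044). Podocan was higher by 0.64 on day 7 and 0.75 on day 11 (adjusted p = 0.011 and 0.0046), and the day 7 call was lost without shRNA1_day7 replicate 2 or shRNA2_day7 replicate 1 (adjusted p = 0.092 and 0.15) or the trend and robust steps (0.051). Biglycan was called at day 11 only (0.35, adjusted p = 0.0087), and not without shRNA1_day11 replicate 2 or shRNA2_day11 replicate 1 (adjusted p = 0.097 and 0.075). The 8 interferon response genes were called lower with shRNA 2 in 4 cases at day 0 and 6 at day 3, and higher in 3 at day 7 and 8 at day 11, when their sum ran from 4437 to 28048 normalized reads over the 4 knockdown libraries. Of 9 adipocyte markers 2 were called lower with shRNA 2 at day 0, 2 higher at day 3, 6 lower at day 7 and 1 in each direction at day 11. Of 9 preadipocyte or fibroblast markers 4, 6, 3 and 4 were called higher on the 4 days, and 3, 2 and 2 lower on the first 3. The part of these genes in the difference between the shRNAs was not tested.

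**Figure D4:**
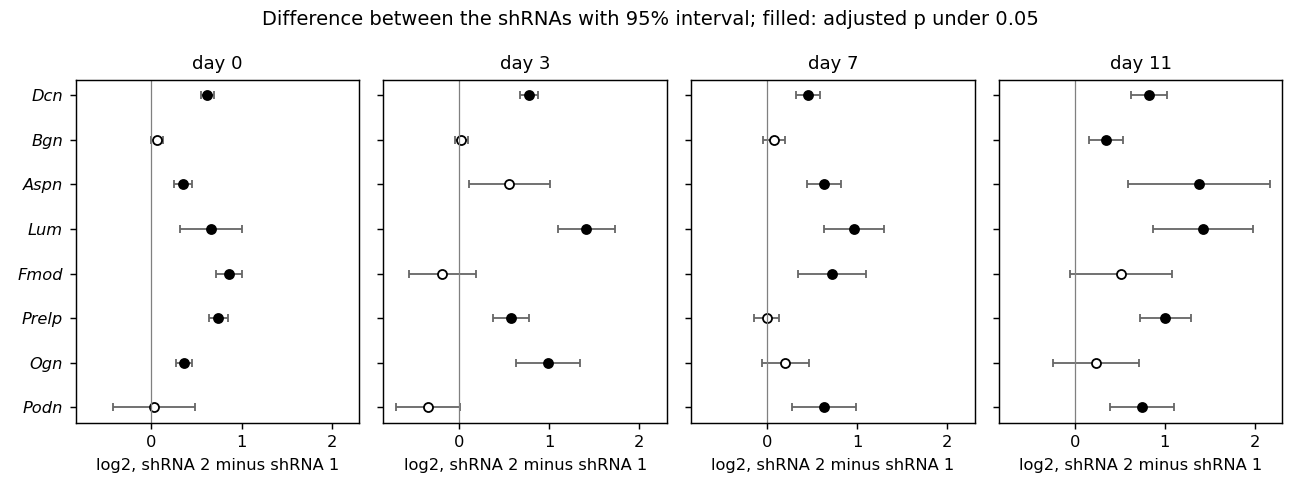
Log2 difference of shRNA 2 from shRNA 1 by day for the 8 genes past the filter, with 95% intervals; filled points have an adjusted p under 0.05. All filled points lie right of 0, the Fmod point of day 3 rests on 4 reads or fewer per library, and Dcn and Lum are filled on all days. The Prelp points are descriptions, though drawn like the others.

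Genes that work with these proteins were read from lists. Of 11 proteases that cut small leucine-rich proteoglycans, 0, 7, 9 and 6 were called lower in knockdown cells at days 0, 3, 7 and 11. Over all genes 2.44%, 12.1%, 22.6% and 16.2% were. The list's median difference at day 7 was -0.61, beside 0.01 over all genes. Mmp9, a gelatinase, fell by 1.99 at day 7 (342.1 ± 62.3 against 1456 ± 28 normalized reads, n = 4; adjusted p = 8.7e-10) and by 1.33 at day 11 (adjusted p = 3.4e-06). Mmp3, a stromelysin, fell by 1.56 at day 7 (128.7 ± 43.9 against 420.8 ± 28.1; adjusted p = 2.0e-06), and Adamts5, an aggrecanase, by 1.05 at day 11 (1160.1 ± 110.1 against 2470 ± 122; adjusted p = 1.2e-06). Bmp1, which trims the propeptide of biglycan, fell by 0.51 at day 11 (adjusted p = 3.0e-05).

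Sugar chain enzymes were next. Of 19 tested genes for chondroitin and dermatan sulphate chains, 1, 8, 6 and 5 were called lower at days 0, 3, 7 and 11, and 5 and 1 higher at days 7 and 11. Over all genes 2.44%, 12.1%, 22.6% and 16.2% were lower on those 4 days, and 24.9% and 16.8% higher on days 7 and 11. The day 7 counts in both directions are near that background. Csgalnact1, which starts chondroitin chains, fell by 0.64 at day 7 (283.4 ± 74.9 against 451.1 ± 43.2; adjusted p = 0.0036), and Chpf, a chain polymerizing factor, by 0.32 at day 11 (adjusted p = 0.0011). Of 5 tested keratan sulphate genes, 2 were lower and 1 higher at day 7. The 2 sulphotransferases of that list that were called moved apart, Chst1 rising by 1.07 (1573 ± 434 against 696.1 ± 42.0; adjusted p = 0.00098) and Chst2 falling by 0.95 (392.8 ± 77.9 against 786.7 ± 47.3; adjusted p = 1.2e-05). Tpst1, which sulphates tyrosines, fell by 0.33 on day 7 and 0.29 on day 11 (adjusted p = 0.0030 and 0.030), while Tpst2 was not called against control.

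Among fibrillar and type VI collagen genes, of 8 tested, 3, 1 and 2 were called lower in knockdown at days 0, 3 and 7, and 1 was called higher at each of days 3, 7 and 11. Over all genes 2.44%, 12.1% and 22.6% were lower on the first 3 days, and 14.6%, 24.9% and 16.8% higher on the last 3. Col6a3, of microfibrillar type VI collagen, was the gene called higher, by 0.23, 0.45 and 0.57 at days 3, 7 and 11 (adjusted p = 0.0015, 3.6e-05 and 0.00046), and Col1a2 fell by 0.37 at day 7 (adjusted p = 3.6e-05). Between the shRNAs 6, 7, 5 and 5 of the 8 collagens were called at the 4 days, all higher with shRNA 2, where 18.6%, 10.6%, 7.52% and 11.6% of all genes were called higher. Of the ligands and receptors, Tlr2, a receptor for soluble biglycan, fell by 0.99 at day 7 (1539.8 ± 279.5 against 3105 ± 158; adjusted p = 5.0e-06) and also by 0.78 on day 11 (adjusted p = 0.037). Tgfbr1 rose by 0.43, 0.54 and 0.32 at days 3, 7 and 11 (adjusted p = 0.027, 2.9e-06 and 0.042), and Tgfb2 fell by 0.73 at day 3 (adjusted p = 0.0050). In all, 1, 6, 5 and 2 of the 14 or 15 tested ligands and receptors were lower at days 0, 3, 7 and 11, and 1, 2 and 1 were higher at the last 3 of these days. The day 11 count of lower genes is near the 16.2% of all genes called lower, and the count of higher genes is below the 16.8% called higher.

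Of 8 related genes outside the 9, 3 passed the filter on low values and were tested. Podnl1, a close relative of podocan, rose in knockdown by 0.50 at day 7 (288.3 ± 56.8 against 192.0 ± 19.0; adjusted p = 0.0028) and 0.45 at day 11 (adjusted p = 0.028). Tsku, a secreted member known as tsukushi, rose by 0.53 at day 11 (adjusted p = 0.022). Ecm2, the neighbour of Aspn, fell by 0.43 at day 7 (adjusted p = 0.027). In control cells from day 0 to day 3 Podnl1 fell by 2.16 (adjusted p = 1.1e-20) and Ecm2 fell by 1.64 (adjusted p = 5.8e-15), while Tsku rose by 0.72 (adjusted p = 1.3e-14).

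Over the 32 libraries the pattern of osteoglycin was most like that of fibromodulin among the family, with a Pearson correlation of log2 values of 0.977. Fmod and Prelp reached 0.814 and Ogn and Prelp 0.793, whereas Ogn and Lum had -0.666 and the neighbours Dcn and Lum 0.514. These points share arms, days and treatment, so the values are a description and carry no test. Among all genes past the filter, those most like Ogn were Ppfibp1 (0.987), Anxa3 (0.987) and Cald1 (0.982), and those most like Fmod were Gpr176, Acta2 and Plscr2 (each 0.981). Prelp was nearest to Obsl1 (0.976), Olfml3 (0.970) and Lipa (0.967), and Aspn to Postn (0.914), which encodes periostin, Adgra2 (0.898) and Loxl1 (0.867), a collagen cross-linking enzyme. Dcn was nearest to Slc50a1 (0.888), Bgn to Trafd1 (0.895), Lum to Psma7 (0.913) and Podn to Sil1 (0.954).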

How the data were processed

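RNA was sequenced from 32 libraries (Illumina TruSeq RNA, per the labels' protocols). The submitters' processing notes name TopHat2 2.1.0, Bowtie2 2.2.6, SAMtools 1.3.1 and HTSeq 0.6.1; the build, annotation and use of strand are not given in the sources used here. The authors deposited log2 values, which run from -1.56 to 17.99 and could be inverted as a regularized log transform, a step no header names; such values understate differences of genes with few reads. The inversion gave reads within 0.1 of a whole number for 99.3% of values; for the 9 genes 270 of 288 were whole by this tolerance, the rest being Bgn, off by at most 0.399 reads.

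Tests were made with limma 3.58.1 in R 4.3.3 on the deposited log2 values, using its trend and robust options and Benjamini-Hochberg adjustment over all genes tested. A gene was tested where 2 to the power of its value was at least 10 in at least 4 libraries of the fit, which 8 of the 9 genes passed. Knockdown was compared with control per day with both shRNAs in 1 group, the shRNAs in 3 groups per day, time courses within each arm (with a term for shRNA in knockdown), and the change of the knockdown difference over all 32 libraries. Because the values are log2 already, no pseudocount was added. On simulated reads for day 7, with 13252 genes tested, 88.1% of genes changed 1.5-fold and 100.0% of those changed 2.0-fold were called, and 5.4% of calls were false. The simulation changed 67 tested genes at each of these folds, none of them rare. It gave both shRNAs the same mean and took its spread from control libraries. In the measured day 7 data 47.6% of genes were called and the shRNAs differed in 16.4%, so these rates do not carry over to the pooled tests.

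Groups follow the sample titles. Replicate pairs differed by more than sampling noise (chi-square per degree of freedom 3.00 to 11.8), so no pair was treated as 1 repeated library, which does not show that they are separate cultures. The 9 genes and all lists were chosen with earlier results of these data known. The genes named from each list are at most the 3 largest called changes per comparison; the nearest genes are the 3 with the highest correlation. Positions come from GENCODE M21 (GRCm38), matched by Ensembl ID for 20521 genes, and levels per kb use the principal transcript. Dcn and Lum have no entry in the promoter table. Alternatives were other filters, scalings, a pseudocount of 10, voom, other fits, each shRNA alone, and leaving out each library.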

Additional observations from a re-analysis of the deposited data

Results flagged for a closer look

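Prolargin in control libraries of day 11 had 1 library far from the others of its group: replicate 1 stood at 11.58 on the deposited log2 scale, and its gap to the nearest library was 0.925 of the whole range of the group. Such a gap appears by chance in about 1 of 20 groups, or 3.6 of the 72 groups checked.

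The difference between shRNA 2 and shRNA 1 passed the test of the difference itself in 21 cases, all higher with shRNA 2 on the log2 scale. The cases of Prelp are counted but are descriptions, since its knockdown values were used in the choice. At day 0 these were Dcn (0.62), Aspn (0.35), Lum (0.66), Fmod (0.86), Prelp (0.74) and Ogn (0.36). At day 3 they were Dcn (0.78), Lum (1.41), Prelp (0.58) and Ogn (0.99). At day 7 they were Dcn (0.45), Aspn (0.63), Lum (0.97), Fmod (0.72) and Podn (0.64), and at day 11 Dcn (0.82), Bgn (0.35), Aspn (1.38), Lum (1.42), Prelp (1.01) and Podn (0.75). The knockdown difference changed with the day in 3 cases: for Ogn by -1.28 from day 0 to day 7 and by -1.03 to day 11, and for Podn by 0.94 to day 11. Those of Ogn are descriptions, since its day 0 control libraries were used in the choice.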

How the results depend on the processing

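Each result was recomputed under the alternatives. Of the values for single genes 3015 kept their side of the threshold and, where tested, their direction, 66 lost a call, 39 gained one and 33 described without a test moved by more than the spread between replicates, while 33 tested values and 13 described without a test changed sign. Against control, Lum at day 7 was -0.42 with shRNA 1 alone (adjusted p = 0.014, against 0.06 with both), and Podn at day 7 was -0.13. With shRNA 2 alone Lum was 0.19 at day 0 and 0.00067 at day 11, Fmod 0.074 at day 0 and Aspn 0.30 at day 11, none of them called. Of the described values Lum at day 3 was 0.39 with shRNA 2 alone and Ogn at day 3 was -0.38 with shRNA 1 alone. With libraries scaled to equal totals, Bgn and Aspn from day 0 to day 3 in knockdown were -0.013 and -0.0041, Prelp between the shRNAs at day 7 was 0.035, and the change of the knockdown difference of Dcn to day 11 was -0.044. Signs also changed on leaving out single libraries for values that were not called. Lum against control ran from -0.31 to 0.035 at day 0 and from -0.17 to 0.27 at day 7. Prelp from day 7 to day 11 in control, described only, ran from -0.028 to 0.071, and Dcn from day 3 to day 7 in knockdown from -0.084 to 0.043. Between the shRNAs Podn at day 0 ran from -0.12 to 0.18 and Prelp at day 7 from -0.097 to 0.089. The change of the knockdown difference ran from -0.12 to 0.10 for Dcn and from -0.026 to 0.41 for Lum to day 7, and from -0.17 to 0.17 for Dcn and from -0.22 to 0.45 for Aspn to day 11. Of the 7 genes tested against control, 1 was called at day 0, but 2 with a filter at 50, a pseudocount of 10, voom or shRNA 2 alone, 6 with shRNA 1 alone, 5 with the shRNAs as separate groups and 0 in a fit of all 32 libraries (limma; 1 at an unadjusted p under 0.05). Between the shRNAs at day 7 the 5 calls became 3 without the trend and robust steps. For the change of the knockdown difference, the single call from day 0 to day 7 became 3 with a coefficient per shRNA and day, and the 2 calls to day 11 became 4 with that fit and 1 with voom. Ogn, described only at day 0 and for these changes, is counted where it passed.

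Replicate numbers were not taken to pair the samples. Of 24 pairs of same-numbered groups on a day, 3 had deviations correlated above 0.1 (range -0.005 to 0.215), all 3 at day 11. Of 40 pairs within an arm over days 5 did (-0.094 to 0.119). In groups of 2 libraries the deviations mirror each other, so some pairs repeat a value. The check does not show that same-numbered libraries of day 11 are unrelated. With a replicate block 0, 3 and 1 genes were called against control at days 0, 7 and 11, where 1, 5 and 4 were called without the block. The calls lost were Aspn at day 0, Aspn and Bgn at day 7 and Fmod, Dcn and Podn at day 11 (adjusted p = 0.053 to 0.54), and Aspn between the shRNAs at day 3 became a call (adjusted p = 1.0e-06); at day 0 with the block 2 had an unadjusted p under 0.05 in limma.

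Leaving out single libraries gave 0 to 3 genes called against control at day 0 (3 to 5 at an unadjusted p under 0.05 where the count was 0, without control replicate 1, 3 or 4), 3 to 5 at day 7 and 2 to 5 at day 11, and 3 to 5 of the 8 genes past the filter were lower at day 3. In control cells 5 to 5 of those 8 genes were lower from day 0 to day 3 (Omd, also lower, is under the filter), then 5 to 5 called and 5 to 6 called in the later steps. In knockdown cells they were 4 to 6, 5 to 6 and 3 to 4. Between the shRNAs they were 5 to 6, 4 to 5, 3 to 5 and 4 to 6 at days 0, 3, 7 and 11, and for the change of the knockdown difference 1 to 1 and 2 to 2.

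Scaling to equal totals moved all genes by -0.127 from day 0 to day 3 in control and by -0.157 in knockdown. Under it the share of all calls that were higher went from 50.1% to 38.6% and from 50.3% to 37.7% in those contrasts, from 25.1% to 43.3% for knockdown at day 0, from 45.8% to 61.9% between the shRNAs at day 7, and from 56.0% to 40.7% and 53.6% to 40.1% for the change of the knockdown difference. Depth limits Omd, and Fmod at day 3, which held 6 reads or fewer in every library.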
